A study of Mus musculus with 27 samples.

Results

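Barcoded lung tumour clones were compared between mice with floxed Lkb1 and mice with floxed Keap1, both without an engineered oncogene. The mice were assigned by genotype label: all 6 Lkb1;TC mice and all 6 Keap1;TC mice, which make 12 of the 27 mice of the study. They held 66041 of the 490589 clones in the study, 10218 in the Lkb1;TC mice and 55823 in the Keap1;TC mice. TC stands for R26LSL-Tomato;H11LSL-Cas9, a Tomato reporter and a Cas9 transgene that are both switched on by Cre recombinase. Lkb1;TC mice carry this together with homozygous floxed Lkb1 (Lkb1f/f), and Keap1;TC mice carry it together with homozygous floxed Keap1 (Keap1f/f). Both genotypes received the same lentiviral pool, in which every vector delivered Cre and sgRNAs, and lungs were taken after 3 months. Cre from the vector thus removes the floxed gene, starts Cas9 and labels the cell in every infected cell at once. TC mice with no floxed allele (6 mice) and KT mice, which carry an engineered oncogene allele with the Tomato reporter and no Cas9 (9 mice), are given as controls. The 2 genotypes are called Lkb1 mice and Keap1 mice from here on.

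A clone is the set of cells that descend from 1 infected cell and share its vector barcode. Its size was measured from barcode reads amplified from bulk lung DNA and converted by the authors to an estimated number of cells. Lkb1, whose official symbol is Stk11 (gene 20869, chromosome 10, 80115767 to 80130679, GRCm38.p6), encodes a serine/threonine kinase that activates AMPK and its relatives and links energy status to growth. Keap1 (gene 50868, chromosome 9, 21229730 to 21239332) encodes the adaptor through which a cullin ubiquitin ligase marks the antioxidant transcription factor NRF2 for degradation. Both are tumour suppressor genes that are often lost in human lung adenocarcinoma. The pool held 8 vectors, of which 4 are described by name: an inert vector whose sgRNAs cut no tumour suppressor gene, vectors against Nf1 or against Rasa1, and a vector against both. Nf1 (gene 18015, chromosome 11, 79339590 to 79581609) and Rasa1 (gene 218397, chromosome 13, 85214699 to 85289486) encode GTPase-activating proteins that return RAS to its inactive form. The other 4 vectors entered every total and every adjustment for multiple tests but are not reported here.

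Total reads per mouse ranged from 648735 to 6867806 in Lkb1 mice and from 277671 to 776713 in Keap1 mice. The smallest read count listed for a clone was 2 to 6 reads in Lkb1 mice and 2 to 10 reads in Keap1 mice, so the smallest clones listed held 2.97 to 11.8 and 3.31 to 8.20 cells. The ranges of this detection limit overlapped. All Lkb1 mice have names that begin with RT and all Keap1 mice have names that begin with LC, so a handling group and the genotype cannot be told apart. Lkb1 replicate 5 stood apart, with more clones of at least 100 cells and more of at least 10000 cells than any other Lkb1 mouse. Results that rest on this mouse are given with and without it. Deletion of the floxed alleles, cutting by Cas9 and the identity of the infected cells cannot be read from barcode counts. Ages, sexes and viral doses are not given in the sources used here, and a difference in clone number therefore carries any difference in viral dose.

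Lkb1 mice held far fewer clones than Keap1 mice. The number of clones per mouse ranged from 1033 to 2869 in Lkb1 mice, with a median of 1537.5. In Keap1 mice it ranged from 5860 to 11776, with a median of 9611. The ranges did not overlap, and the highest Lkb1 mouse stood below the lowest Keap1 mouse. The log2 difference, Lkb1 minus Keap1, was -2.51 (SE 0.26, 6 and 6 mice), a geometric mean 5.68-fold higher in Keap1 mice (exact two-sided permutation p = 0.00216, adjusted p = 0.00275). This p is the smallest that the 924 splits of 6 and 6 mice can give, and adjusted p-values here are by Benjamini-Hochberg over 14 measures of number and size. Of these measures 12 passed an adjusted p of 0.05, 9 of them higher and 3 lower in Lkb1 mice. Most clones of either genotype were small, and clones under 100 cells numbered 964 to 2190 in Lkb1 mice and 5515 to 10049 in Keap1 mice (log2 difference -2.50, SE 0.23, exact permutation adjusted p = 0.00275). After thinning to equal reads that difference was -4.54. Thinning drops clones left with too few reads, and read totals were mostly higher in Lkb1 mice. It thus takes more of their small clones and cannot check this difference. Above a limit of 20 cells, well over the smallest listed clone in each mouse, the numbers still did not overlap, at 278 to 1697 against 2290 to 7007.

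**Figure D1:**
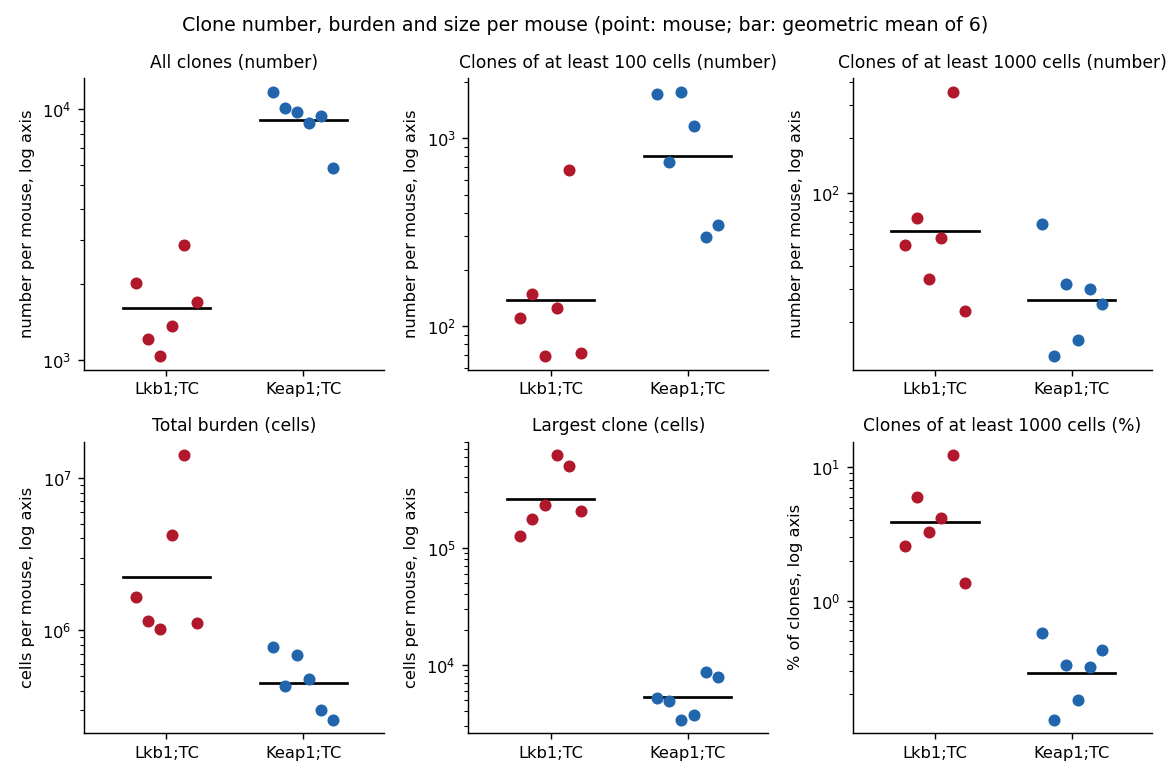
Number of clones, number of at least 100 and at least 1000 cells, total burden, largest clone and percent of clones of at least 1000 cells in Lkb1;TC and Keap1;TC mice, on log axes in clones, cells or percent, with 1 point per mouse and a bar at the geometric mean of 6. Lkb1 mice had fewer clones, at most 2869 against at least 5860, while their largest clones held at least 126655 cells against at most 8749.

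The share of clones that grew past 100 cells gave no call, and the groups separated in share at 1000 cells. Clones of at least 100 cells were 4.23% to 23.7% of all clones in Lkb1 mice (10.2% ± 7.18, SD, n = 6) and 3.16% to 18.1% in Keap1 mice (10.4% ± 5.79, SD, n = 6). The ranges overlapped almost fully and the log2 difference was -0.04 (SE 0.53, exact permutation adjusted p = 0.950). Its sign depended on how the smallest clones were treated, at 0.83 after thinning to equal reads and 0.61 with at least 10 reads, and it passed under no setting run (adjusted p 0.277 to 0.957). In number these clones were fewer in Lkb1 mice, with 69 to 679 (median 117.5) against 299 to 1771 (median 953.5) in Keap1 mice. That log2 difference was -2.54 (SE 0.67, exact permutation p = 0.00649, adjusted p = 0.00758), or -3.00 without Lkb1 replicate 5, although the ranges overlapped through that mouse.

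At 1000 cells the share of clones was higher in every Lkb1 mouse than in any Keap1 mouse. It ranged from 1.35% to 12.4% in Lkb1 mice (median 3.72%, mean 4.96% ± 3.96, SD, n = 6). In Keap1 mice it ranged from 0.129% to 0.577% (median 0.322%, mean 0.326% ± 0.163, SD, n = 6). The log2 difference was 3.73 (SE 0.55), a 13.3-fold higher geometric mean in Lkb1 mice (exact permutation p = 0.00216, adjusted p = 0.00275), and it was 3.40 without Lkb1 replicate 5. The share is taken over all clones of a mouse, whose geometric mean number was 5.68-fold higher in Keap1 mice, so it carries that difference too. The number of clones of at least 1000 cells gave no call. Lkb1 mice held 594 clones of at least 1000 cells, 23 to 355 per mouse, and Keap1 mice held 184, 13 to 68 per mouse. The log2 difference in number was 1.23 (SE 0.65, exact permutation adjusted p = 0.0816). It was 0.73 without Lkb1 replicate 5, and passed the threshold without Lkb1 replicate 6 or without Keap1 replicate 1 (adjusted p = 0.0280 for each by the exact permutation test, with a range of 0.0280 to 0.166 over the 12 mice left out).

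Clones of at least 10000 cells were found in every Lkb1 mouse and in no Keap1 mouse. Lkb1 mice held 295 of them, 15 to 170 per mouse with a median of 29.5, or 0.880% to 5.93% of their clones. Keap1 mice held 0 of 55823, which allows a pooled share of up to 0.00537%, by counting error alone. Against a floor of 3 clones in each Keap1 mouse, the mean number was at least 16.4-fold higher and the mean share at least 73.2-fold higher in Lkb1 mice. Lkb1 replicate 5 held 170 of the 295, and without it these bounds were at least 8.33-fold and at least 52.7-fold. The groups did not overlap in either measure (exact permutation adjusted p = 0.00275 for both), although medians in place of means raised the adjusted p of the number above the threshold (adjusted p = 0.0707, range over its other settings 0.00275 to 0.0707).

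Over all vectors together, the genotypes were apart in how many clones past 100 cells were larger still. Sizes come from 1 harvest, so these are not steps followed in time. The similar share at 100 cells covers opposite orders by vector. For the vector against both Nf1 and Rasa1, a mean of 44.2% of its clones reached 100 cells in Lkb1 mice and 10.1% in Keap1 mice. The means were 2.23% and 8.72% for inert, 4.23% and 9.93% for Nf1, and 3.63% and 8.89% for Rasa1, in ranges that overlapped. Of the clones that had reached 100 cells, 31.9% to 52.3% had reached 1000 cells in Lkb1 mice, and 1.38% to 10.03% in Keap1 mice. Of the clones that had reached 1000 cells, 39.7% to 65.2% had reached 10000 cells in Lkb1 mice, and 0 in Keap1 mice. These conditional shares are given without a test. Along a ladder of minimum sizes, the numbers per mouse overlapped from 50 to 1000 cells. They separated again at 2000 cells, at 23 to 290 clones in Lkb1 mice and 3 to 18 in Keap1 mice. At 5000 cells they were 21 to 209 and 0 to 5.

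**Figure D2:**
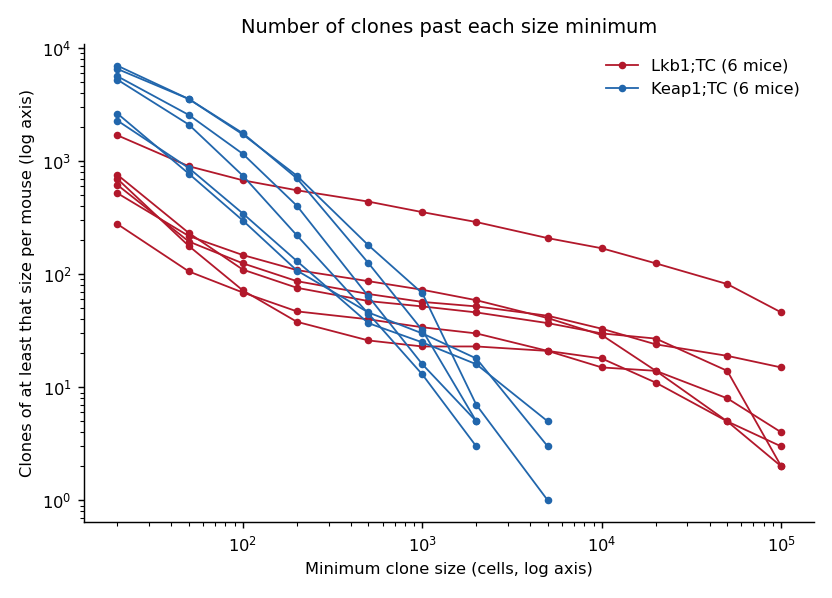
Number of clones per mouse (vertical, log axis) that reach each minimum size in cells (horizontal, log axis), 1 line per mouse, with counts of 0 not drawn. Lines of Lkb1;TC mice start lower and run on past 10000 cells, while those of Keap1;TC mice fall steeply after 100 cells and hold 0 to 5 clones at 5000 cells.

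Despite their fewer clones, Lkb1 mice carried the larger burden, defined as the summed cells of all clones of a mouse. Burden ranged from 1016663 to 14126215 cells in Lkb1 mice, with a median of 1402270. It ranged from 258434 to 776852 cells in Keap1 mice, with a median of 454395. The ranges did not overlap, and the lowest Lkb1 mouse stood above the highest Keap1 mouse. The geometric mean was 4.97-fold higher in Lkb1 mice (log2 difference 2.31, SE 0.67, exact permutation p = 0.00216, adjusted p = 0.00275), with a log2 difference of 1.78 without Lkb1 replicate 5. Medians in place of means gave a smaller difference of 1.60, also past the threshold.

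The burden sat in different clones. Clones of at least 1000 cells held 96.4% to 99.0% of the burden in Lkb1 mice and 5.68% to 30.1% in Keap1 mice. Clones of at least 10000 cells alone held 82.4% to 96.4% in Lkb1 mice and 0 in Keap1 mice. Summed over clones of at least 1000 cells, burden was 40.2-fold higher in Lkb1 mice (log2 difference 5.33, SE 0.71, exact permutation adjusted p = 0.00275), with 991030 to 13951587 cells against 25423 to 101154. Clones under 100 cells showed the opposite order, with 16270 to 56997 cells per Lkb1 mouse and 114742 to 292638 cells per Keap1 mouse. To reach 50% of the burden took the 4 to 32 largest clones of a Lkb1 mouse (median 7) and the 222 to 1282 largest of a Keap1 mouse (median 953.5).

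**Figure D3:**
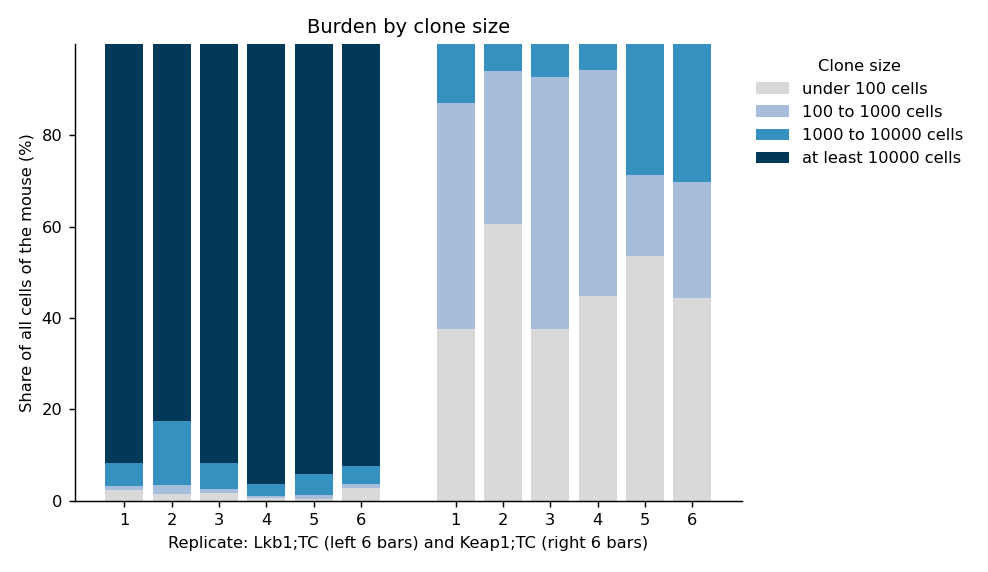
Percent of each mouse's burden (its summed cells) held by clones in 4 size classes, 1 stacked bar per mouse from 0, Lkb1;TC on the left and Keap1;TC on the right. In Lkb1;TC mice clones of at least 10000 cells held 82.4% to 96.4%, and in Keap1;TC mice clones under 1000 cells held most of the burden.

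The largest clones also differed between the genotypes, with no overlap. The largest clone of a mouse held 126655 to 617960 cells in Lkb1 mice (median 218057) and 3400 to 8749 cells in Keap1 mice (median 5093). The log2 difference was 5.62 (SE 0.43), a 49.3-fold higher geometric mean in Lkb1 mice (exact permutation p = 0.00216, adjusted p = 0.00275). The separation was present in the raw reads, which were 96333 to 533771 for the largest clone in Lkb1 mice and 2160 to 16018 in Keap1 mice. Reads are not a separate check, since cell numbers run nearly in proportion to them and read totals were mostly higher in Lkb1 mice. The 10th largest clone still held 24986 to 248626 cells in Lkb1 mice against 1245 to 3619 in Keap1 mice (log2 difference 5.11, SE 0.61, exact permutation adjusted p = 0.00275). The 10th largest clone of every Lkb1 mouse was thus larger than the largest clone of every Keap1 mouse. The largest clone took 3.52% to 22.6% of a Lkb1 mouse's burden and 0.495% to 3.06% of a Keap1 mouse's burden (log2 difference 3.31, SE 0.61, exact permutation adjusted p = 0.00275). Among clones of at least 1000 cells, the geometric mean size was 6775 to 24727 cells in Lkb1 mice and 1421 to 2588 in Keap1 mice, 7.36-fold higher in Lkb1 mice (log2 difference 2.88, SE 0.31, exact permutation adjusted p = 0.00275).

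The TC mice, which carry neither floxed allele, lay above all Lkb1 mice in number of clones and above all Keap1 mice in the size of the largest clone. TC mice held 4740 to 53536 clones, of which 0.274% to 1.19% reached 1000 cells. Their largest clones held 19482 to 134018 cells, and they had 4 to 86 clones of at least 10000 cells each. Their share of clones past 1000 cells lay below that of every Lkb1 mouse. These values are set side by side without a test. The KT mice held 18067 to 31906 clones and largest clones of 5153 to 109715 cells.

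The vectors were present in nearly the same proportions among all clones of the 2 genotypes. The inert vector made up 9.52% ± 1.62 of clones in Lkb1 mice and 10.2% ± 0.575 in Keap1 mice (SD, n = 6 each). The Nf1 vector made up 14.1% ± 1.64 and 14.9% ± 1.23. The Rasa1 vector made up 13.7% ± 3.08 and 13.2% ± 0.977, and the vector against both genes 3.36% ± 1.86 and 3.67% ± 0.995. Of the 8 vectors, 0 differed in this share after adjustment and 0 at an unadjusted exact permutation p under 0.05. The 4 named vectors together held 40.4% of all clones in Lkb1 mice and 42.1% in Keap1 mice. Among KT clones, in which nothing is cut, the same vectors made up 12.6%, 19.3%, 15.3% and 2.80%.

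The vector against both Nf1 and Rasa1 differed most among the named vectors in the share of clones that grew past 1000 cells. Over all mice, 96 of its 380 clones in Lkb1 mice reached 1000 cells, which is 25.3% (Wilson 95% interval 21.2% to 29.9%, counting error only). Lkb1 replicate 5 held 61 of the 96, and without it 35 of 191 reached that size. In Keap1 mice 1 of its 2111 clones did, which is 0.0474% (0.00836% to 0.268%). That clone held 2975 cells and was found in Keap1 replicate 5. The ratio of the pooled shares was 533, with an exact 95% interval of 93.5 to 21281 that covers counting error only. It was 387 without Lkb1 replicate 5. Without Keap1 replicate 5 the Keap1 share was 0, which leaves a lower limit of 126 and no upper limit. By mouse, 8.57% to 32.3% of this vector's clones reached 1000 cells in Lkb1 mice (median 21.4%), and 0 in 5 Keap1 mice with 0.439% in the remaining mouse. The difference on the log2(percent + 0.1) scale was 7.16 (SE 0.50, exact permutation p = 0.00216, adjusted p = 0.00866 over the 8 vectors). In number it had 3 to 61 such clones per Lkb1 mouse and 0 or 1 per Keap1 mouse, a difference of 4.02 on the log2(number + 0.5) scale (SE 0.65, exact permutation adjusted p = 0.0173, 3.49 without Lkb1 replicate 5). By number of clones it was the only one of the 8 vectors that passed the threshold, and that count was 0 to 3 over the other settings. By own share 3 of the 8 vectors passed, 2 of them named. This vector was already apart at 100 cells, which 22.9% to 66.7% of its clones reached in Lkb1 mice and 3.40% to 15.4% in Keap1 mice.

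The vector against Nf1 alone showed a smaller difference. Of the Nf1 vector's clones, 32 of 1402 reached 1000 cells in Lkb1 mice and 17 of 8272 in Keap1 mice. Lkb1 replicate 5 held 18 of the 32, and without it 14 of 1079 reached that size. By mouse the share was 0.391% to 5.57% in Lkb1 mice (median 1.11%) and 0 to 0.533% in Keap1 mice (median 0.0987%), so that the ranges overlapped. The difference on the log2(percent + 0.1) scale was 2.75 (SE 0.74, exact permutation p = 0.00433, adjusted p = 0.0115), or 2.36 without Lkb1 replicate 5. With a minimum of 500 cells it was 1.63 and no longer passed (exact permutation adjusted p = 0.260, range over its other settings 0.00577 to 0.260). In number, the Nf1 vector had 1 to 18 such clones per Lkb1 mouse and 0 to 9 per Keap1 mouse (log2 difference 0.97, SE 0.92, exact permutation adjusted p = 0.820, and -0.49 with a minimum of 500 cells). Those clones were larger in Lkb1 mice, with a pooled geometric mean of 8430 cells against 1451, and 16 of the 32 held at least 10000 cells. Of these 16, 8 were in Lkb1 replicate 5.

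For the Rasa1 and inert vectors no difference in outgrowth past 1000 cells was called. The Rasa1 vector had 14 such clones of 1390 in Lkb1 mice and 20 of 7414 in Keap1 mice, a mean share of 0.974% ± 1.08 against 0.226% ± 0.308 (SD, n = 6 each). Its difference on the log2(percent + 0.1) scale was 1.17 (SE 0.99, exact permutation adjusted p = 0.352). A size limit of 500 cells turned it to -0.09. The pooled ratio of its shares was 3.73 (exact 95% interval 1.74 to 7.77, counting error only), which takes no account of the spread between mice. It was 2.69 without Lkb1 replicate 5 and 9.60 without Keap1 replicate 1, which held 14 of the 20 Keap1 clones. The inert vector had 3 such clones of 951 in Lkb1 mice, all in replicate 5, and 8 of 5689 in Keap1 mice, a difference of -0.18 (SE 0.79, exact permutation adjusted p = 0.849). The largest of the 3 held 195058 cells. Without Lkb1 replicate 5 the difference was -0.85. At 100 cells the inert vector's mean share was lower in Lkb1 mice, in ranges that overlapped. It was 0.909% to 4.52% of its clones in Lkb1 mice and 2.18% to 14.7% in Keap1 mice. The pooled inert ratio was 2.24 (0.383 to 9.35), and 4.69 without Keap1 replicate 1. This ratio points the other way from the mean difference on the log2(percent + 0.1) scale. The plain mean share was 0.251% in Lkb1 mice and 0.123% in Keap1 mice. Both the ratio and the Lkb1 mean share rest on Lkb1 replicate 5, since the remaining 5 Lkb1 mice held 0 inert clones of at least 1000 cells.

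**Figure D4:**
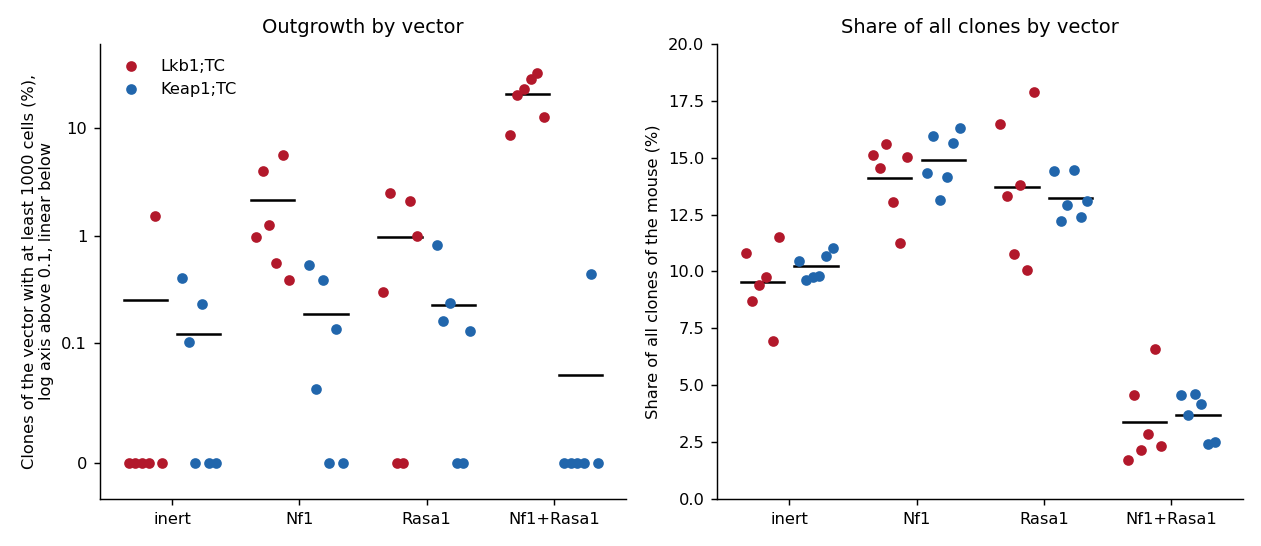
Percent of each named vector's own clones that reach 1000 cells (left, log axis that is linear below 0.1) and percent of all clones of the mouse that carry each vector (right, linear axis), with 1 point per mouse and a bar at the mean of 6, in Lkb1;TC and Keap1;TC mice. The vector against both Nf1 and Rasa1 stands at 8.57% to 32.3% on the left in Lkb1;TC mice and at 0 in 5 of 6 Keap1;TC mice, while on the right the points of the genotypes overlap for each vector.

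How a vector's share changed from small to large clones was compared within each mouse, as log2 of its share of clones of at least 1000 cells over its share of clones under 100 cells, with 0.5 added to each count. In Lkb1 mice the inert vector lost share (-3.33 ± 0.49, SD), as did the Nf1 vector (-1.44 ± 0.59) and the Rasa1 vector (-2.41 ± 1.33), each in 6 of 6 mice. The size of the inert value is set by the pseudocount, since 5 of these mice had 0 large inert clones, and it ranged from -5.20 to -2.57 over the other settings. The vector against both gained share in 6 of 6 Lkb1 mice (2.99 ± 0.76), from 1.04% to 3.33% of small clones to 5.77% to 21.7% of large ones. Each of these had an exact sign-flip permutation p and adjusted p of 0.0312, the smallest that 6 mice allow, and all 8 vectors passed. In Keap1 mice 0 of 8 vectors passed after adjustment and 3 passed unadjusted, none of them named. There the vector against both had a shift of -0.87 ± 1.27, below 0 in 5 of 6 mice (exact sign-flip permutation adjusted p = 0.214). It made up 2.24% to 4.85% of small clones in Keap1 mice. In Lkb1 mice 197 of its 380 clones held at least 100 cells and so were not counted as small. This lowers its share of small clones there and adds to its shift and to the difference between genotypes.

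Tested directly, the shift of the vector against both genes differed between the genotypes by 3.86 (SE 0.60, exact permutation p = 0.00216, adjusted p = 0.0173). The inert vector's shift was lower in Lkb1 mice by 1.87 on the log2 scale (SE 0.65, exact permutation adjusted p = 0.0433). That call rests on the pseudocount of 0.5, since 5 of 6 Lkb1 mice and 3 of 6 Keap1 mice had 0 inert clones of at least 1000 cells, and it was lost in 7 of 11 other settings. Without Lkb1 replicate 5 the exact permutation adjusted p was 0.0866, in a range of 0.0260 to 0.115 over the 12 mice left out. The shifts of the Nf1 vector (difference -0.17, SE 0.60, exact permutation adjusted p = 0.786) and of the Rasa1 vector (difference -1.29, SE 0.81, exact permutation adjusted p = 0.156) gave no call. Set against the inert vector of the same mouse, the number of large clones of the vector against both was higher by 3.82 ± 0.69 (log2, SD) in Lkb1 mice, in 6 of 6. In Keap1 mice the same value was -0.96 ± 1.83, above 0 in 1 of 6. That difference of 4.78 (SE 0.80) passed (exact permutation adjusted p = 0.0152). Its size depends on the pseudocount, as counts were 0 in 5 of 6 Lkb1 mice for the inert vector and in 5 of 6 Keap1 mice for the vector against both, and it ranged from 3.14 to 7.38 over the other settings. Over those settings the shift difference ranged from 2.24 to 5.72, the difference in number from 2.38 to 5.95 and that in own share from 5.18 to 9.13. For the same effect over inert, the Nf1 vector (1.73, exact permutation adjusted p = 0.187) and the Rasa1 vector (0.71, adjusted p = 0.551) gave no call. With medians in place of means, where most Keap1 mice tie at 0, the calls for the vector against both were lost. The exact permutation adjusted p was then 0.104 for its own share (range over settings 0.00577 to 0.104), 0.251 for its number (0.0173 to 0.251), 0.0519 for its shift (0.0173 to 0.0519) and 0.106 for its effect over inert (0.0152 to 0.106).

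In burden, the named vectors split. Summed over clones of at least 1000 cells, the vector against both held 7719 to 603538 cells per Lkb1 mouse and at most 2975 per Keap1 mouse, a difference of 6.07 on the log2(cells + 1000) scale (SE 0.99, exact permutation adjusted p = 0.00866, and 0.104 with medians). The Nf1 vector held 8673 to 529416 cells against 0 to 11818, a difference of 3.89 (SE 1.05, exact permutation adjusted p = 0.0115, and 0.0519 with medians). It was 3.22 without Lkb1 replicate 5. In this burden 3 of the 8 vectors passed, 2 of them named. The Rasa1 vector (1.79, adjusted p = 0.392) and the inert vector (0.30, adjusted p = 1) gave no call by the same exact permutation test. Without Lkb1 replicate 5 the inert difference turned to -0.98 and the Rasa1 difference was 1.23. The inert difference was between -0.98 and 0.67 over the 12 mice left out, so it has no settled direction.

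As a percent of all burden, the inert vector held 6.90% to 9.46% in Keap1 mice and 0.0685% to 1.47% in Lkb1 mice, a 31.1-fold lower geometric mean (log2 difference -4.96, SE 0.62). The Nf1 vector held 10.2% to 16.2% in Keap1 mice and 0.285% to 6.90% in Lkb1 mice (-2.31, SE 0.69, or -1.68 without Lkb1 replicate 4). The Rasa1 vector held 7.41% to 13.2% and 0.104% to 5.99% (-3.76, SE 0.88). None of these 3 pairs of ranges overlapped, and each had an exact permutation p of 0.00216 and an adjusted p of 0.00346. The vector against both held 0.678% to 9.96% in Lkb1 mice and 1.64% to 4.28% in Keap1 mice, with no call (0.25, SE 0.65, exact permutation adjusted p = 0.693). Over the whole pool 7 of 8 vectors passed, 6 lower and 1 higher in Lkb1 mice. These shares are parts of a whole in each mouse, so a higher share of 1 vector lowers the others. The lower shares thus do not show by themselves fewer cells or slower growth of a vector. Pooled over Keap1 mice the named vectors held 42.1% of clones and 36.9% of burden, against 40.4% and 10.3% in Lkb1 mice. By mouse their share of burden was 27.4% to 40.3% in Keap1 mice and 6.22% to 18.4% in Lkb1 mice. Their share of clones was 40.5% to 43.8% and 34.9% to 46.8%. Of the 295 clones of at least 10000 cells in Lkb1 mice, 42 (14.2%) were of named vectors, 21 of them of the vector against both, 16 of Nf1, 4 of Rasa1 and 1 inert. Lkb1 replicate 5 held 25 of the 42, with 14 of the 21 and 8 of the 16. The largest clone was of a named vector in 0 of 12 mice. The 10 largest clones per mouse make 60 in each genotype. Of these, 6 of 60 in Lkb1 mice and 8 of 60 in Keap1 mice were of named vectors.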

How the data were processed

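According to the protocols in the labels, 32 µg of DNA from each whole lung went into PCR of the barcode region, and library amounts were set by the weight of the lung. The authors' deposited table gives, for each clone, the mouse, the vector, a read count that is a whole number and not normalized, and an estimated number of cells. How reads were merged into clones and converted to cells is not given in the sources used here. Within a mouse the cell number runs nearly in proportion to reads, at 1.08 to 2.06 cells per read in Lkb1 mice and 0.490 to 1.73 in Keap1 mice. Barcode sequences and sgRNA sequences were not used here. Gene coordinates are from RefSeq.

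Clones were counted per mouse at minimum sizes of 100, 1000 and 10000 cells. Numbers were compared as log2(number + 0.5) and shares of clones as log2((number + 0.5)/(clones + 1)). Burden was compared as log2 cells, burden of a vector as log2(cells + 1000) and a vector's own share of large clones as log2(percent + 0.1). The added 0.1 takes no account of the number of clones, so a share of 0 gets the same value however few clones the vector had. The size of a difference that involves shares of 0 thus depends on it. The mouse was the unit. Genotypes were compared by exact two-sided permutation of the mean difference over 924 splits, vectors within a genotype by exact sign-flip permutation over 64 patterns, both with Benjamini-Hochberg adjustment within a family. No count model across features was used, since each clone occurs in 1 mouse. A p-value is the share of splits, or of sign patterns, that give a mean value at least as far from 0 as that observed. Counting intervals cover sampling of clones only. The tests were tried on simulated data. Python 3.11.15, numpy 2.4.6, pandas 2.3.3, scipy 1.17.1 and matplotlib 3.10.9 were used. The 4 vectors named are those with results described here, whatever their values. The mice, measures and vectors were chosen with earlier results of these data known, and a vector's own share of large clones and its percent of burden, and pooled ratios and lower bounds with a mouse left out, were added after these data were seen. Other settings tried were thinning of reads, minimum reads or cells, other minimum sizes, other pseudocounts, medians, another set of small clones, sizes in reads and leaving out each mouse. Replicate numbers follow the order of the samples and pair nothing.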

Additional observations from a re-analysis of the deposited data

Results flagged for a closer look

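Lkb1 replicate 5 stood apart from the other 5 Lkb1 mice in its 679 clones of at least 100 cells, with a gap to the next mouse of 0.667 of the whole range, and in its 170 clones of at least 10000 cells, with a gap of 0.679. Gaps are on the log2 scale used for the tests and were judged against the critical value of Dixon's test for 6 mice. The same mouse held all 3 inert clones of at least 1000 cells in Lkb1 mice, so that the gap was 1 for the number, the burden and the own share of that vector. Keap1 replicate 5 held the 1 clone of at least 1000 cells of the vector against both Nf1 and Rasa1, again with a gap of 1 in number, burden and own share. Keap1 replicate 6 had the lowest percent of burden of that vector, 1.64%, with a gap of 0.803. Over 81 such tests 9 gaps passed, where chance gives about 4.05, and the 6 gaps of 1 come from 2 mice and from groups in which every other mouse was at 0.

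Effects within the mouse differed between the genotypes in 3 named cases by the exact permutation test of the difference. The effect over the inert vector of the vector against both differed by 4.78 (exact permutation adjusted p = 0.0152), its shift from small to large clones by 3.86 (adjusted p = 0.0173), and the shift of the inert vector by -1.87 (adjusted p = 0.0433). The call for the inert shift rests on the pseudocount. It was lost in 7 of 11 other settings and in 6 of 12 runs with a mouse left out.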

How the results depend on the processing

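Of the 12 measures of number and size that passed, 11 kept their direction and their call under all other settings run and with each of 12 mice left out. With medians, the number of clones of at least 10000 cells gave 5.91 (exact permutation adjusted p = 0.0707, range over its other settings 0.00275 to 0.0707). The number of clones of at least 1000 cells gave 0.73 to 1.51 with a mouse left out. The clone number difference was -3.31 after thinning to equal reads, which takes more small clones from the mice with more reads. The count of vectors called by number was 3 with a minimum of 2000 cells, 0 with medians and 1 to 2 with a mouse left out. By burden it was 0 with medians, as it was for the own share of large clones. For the effect over inert it was 2 after thinning, with a pseudocount of 1 or with sizes in reads, 3 with a minimum of 2000 cells, 0 with medians and 1 to 3 with a mouse left out. For the shift between genotypes it was 1 with at least 10 reads, at least 20 cells, a pseudocount of 0.1, small clones of 20 to 100 cells or sizes in reads, 7 with a minimum of 500 cells, 0 with medians and 1 to 4 with a mouse left out. Where the medians are 0 in Keap1 mice, many splits tie. The cause of the other changes was not tested. For the shift within Lkb1 mice the count was 0 to 8 with a mouse left out, since 5 mice allow no p under 0.0625. No direction of a called result reversed. Barcodes shared between mice were not analysed here, so that alternative was not run. No paired analysis was possible because the labels give no replicate numbers. Read depth limits the smallest clones, and the 1 to 3 large clones of some vectors limit their comparisons.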

Other observations

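The clones between 100 and 1000 cells, which fall between the small and the large ones described above, numbered 35 to 324 in Lkb1 mice (median 63) and 269 to 1739 in Keap1 mice (median 939). In Keap1 mice they made up 5865 of the 6049 clones past 100 cells. In Lkb1 mice they made up 609 of 1203, and the other 594 had passed 1000 cells. The median clone of a mouse held 7.74 to 24.6 cells in Lkb1 mice and 12.7 to 33.5 cells in Keap1 mice, with overlapping ranges. These values were not tested.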
